A study of Mus musculus with 12 samples.

Results

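The comparison described here is the knockdown of lincRNA-p21 in cardiomyocytes that had been given phenylephrine (PE), read across all genes. It compares 6 of the 12 libraries in the series, with the spread estimated over all 12 in 1 fit. Of the 6, 3 were treated with a GapmeR against lincRNA-p21 and 3 with a GapmeR negative control. All of them are neonatal mouse cardiomyocytes in culture that received PE for 24 hours, and polyadenylated RNA was sequenced from each. The other 6 libraries had PBS in place of PE with the same pair of GapmeRs, 3 libraries each, and serve as the comparison without the agonist. Below, control means the negative-control GapmeR, knockdown means the lincRNA-p21 GapmeR, and values are normalised read counts, that is read counts scaled by 1 factor per library. The labels do not state whether replicates were separate cultures or animals, so the p-values describe the spread among the libraries, which may be technical. The GapmeR against lincRNA-p21 is a single reagent in the labels, with its sequence and dose not given in the sources used here, and no second one was used.

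LincRNA-p21 is a long noncoding RNA made beside Cdkn1a, the gene of the cell cycle inhibitor p21, and it is known as a transcript that p53 switches on and as a partner of RNA-binding and chromatin proteins. A GapmeR is an antisense oligonucleotide with a DNA core, which pairs with a transcript and lets RNase H cut it without altering the gene. PE stimulates alpha1-adrenergic receptors, which signal through Gq, phospholipase C, protein kinase C and calcium. In heart muscle cells that signal drives growth and a return of fetal genes such as Nppb, in part through calcineurin, NFAT and MEF2.

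In the 12 libraries the whole-number multiples behind the values totalled 21325485 to 22139681, and genes encoded by mitochondria held 4.33% to 10.7% of the signal. PE knockdown replicate 1 stood apart from the other PE libraries in its residual SD, 0.190 on the log2 scale against 0.102 to 0.133 in the other 5, and held 10.04% mitochondrial signal against 6.36% to 9.28%. The highest residual SD of the 12 libraries was 0.248, in PBS knockdown replicate 2. It was 0.181 in PBS knockdown replicate 1, 0.175 in PBS control replicate 2 and 0.116 to 0.136 in the other PBS libraries. Cardiomyocyte markers were high in every PE library, and their summed value ran from 885110 to 1183045 in control and from 718999 to 829391 in knockdown cells, with 1 of 10, the calcium release channel gene Ryr2, called lower (a call lost without PE control replicate 1, 2 or 3 or PE knockdown replicate 2 or 3, with adjusted p from 0.055 to 0.086). Markers of other heart cells were present as well. Of these, 2 of 12 fibroblast, 2 of 12 endothelial, 3 of 10 smooth muscle and pericyte, 1 of 10 epicardial and 1 of 5 Schwann cell markers were lower with the knockdown, where 7.14% of all genes tested were. Without PBS knockdown replicate 2 the smooth muscle count was 6, and without PE control replicate 1 or PE knockdown replicate 2 or 3 the endothelial count was 1. It was 2 for smooth muscle without PE control replicate 2 or 3 or PE knockdown replicate 2, and 2 for epicardial markers without PBS control replicate 2 or PBS knockdown replicate 1 or 2. Of 12 leukocyte markers limma called none (1 at an unadjusted p under 0.05), and their summed value ran from 3679 to 4262 in control and from 3470 to 4083 in knockdown cells. In such bulk libraries fewer cells of a type and less RNA per cell cannot be told apart.

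The GapmeR lowered its target in PE. Trp53cor1, the gene of lincRNA-p21 (ENSMUSG00000085912.3, GRCm38 chromosome 17, 29057430 to 29079179, minus strand), read 56.0, 34.0 and 34.7 in the control libraries and 8.56, 9.97 and 8.93 in the knockdown libraries. The groups did not overlap, and the log2 change was -2.03 ± 0.30 (SE, as for every log2 change below, limma adjusted p = 9.2e-05, n = 3 per group). In PBS the mean went from 64.5 to 15.1, a log2 change of -2.10. The opposite-strand gene AC167363.1 overlaps Trp53cor1, and reads of the pair cannot be told apart because strand use in counting is not given in the sources used here. AC167363.1 itself read 8.62, 7.44 and 8.68 in control and 4.28, 4.98 and 1.99 in knockdown libraries, low but without overlap (-1.02 ± 0.42, limma adjusted p = 0.14), and it fell in PBS, by 3.28 (limma adjusted p = 6e-05).

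Among the other neighbours of the lincRNA few were called. Cdkn1a read 19520, 19531 and 20153 in control and 21717, 17795 and 17262 in knockdown libraries, with overlapping groups and a log2 change of -0.07 ± 0.12 (limma adjusted p = 0.81). That sign turns to 0.02 when libraries are scaled to the same total. The splicing factor gene Srsf3, on the other side of Trp53cor1, had a log2 change of -0.29 ± 0.12 (limma adjusted p = 0.13). Within 1 Mb of Trp53cor1, 53 other genes were tested, with a median log2 change of 0.06. Limma called 1 higher, the chromatin reader gene Brpf3 (0.52), and 2 lower, the secreted protein gene Scube3 (-0.52) and the nuclear receptor gene Ppard (-0.53), and each of these calls was lost when any of 4 or more single libraries was left out (without PE control replicate 2, for instance, the adjusted p was 0.069, 0.052 and 0.057). Among the 11 genes of proteins reported to bind or act with lincRNA-p21, both genes that limma called were higher. Mdm2, the ubiquitin ligase that restrains p53, read 4272, 4336 and 4230 in control and 6277, 6060 and 5802 in knockdown libraries, a rise of 0.50 ± 0.09 with no overlap (limma adjusted p = 0.0012). Trim28, the chromatin co-repressor KAP1, rose by 0.39 ± 0.09 (limma adjusted p = 0.0085).

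Over all 21799 genes tested, the knockdown in PE changed 2553, of which 997 were higher (4.57% of genes tested) and 1556 lower (7.14%), by limma with a Benjamini-Hochberg adjusted p under 0.05, which is what called means throughout. The 4.57% and 7.14% are the shares to set beside each count of list members in PE below. The median log2 change of all genes tested was 0.01. Lower calls made up 60.9% of the total and 42.3% when libraries were scaled to the same total (1501 higher and 1099 lower), a scaling that moved the median to 0.09, so directions of small changes are relative to that choice. Library values did not overlap for 985 of the genes called higher and 1547 of those called lower, where 14.4% and 16.1% of all genes tested lay apart in that direction. The count was 2993 with the 6 PE libraries fitted alone. It fell to 1671 without PE knockdown replicate 2 and to 1701 without PE control replicate 2, and it was 2217 without PE knockdown replicate 1.

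The PBS libraries gave fewer calls. PBS knockdown replicate 2, the library with the highest residual SD, is among them. In PBS 297 genes were higher (1.36% of genes tested) and 700 lower (3.21%). Those group means come from other libraries than the PE means, while both comparisons share 1 estimate of the spread. Of the PE calls, 548 genes were lower in both, which is 35.2% of the genes lower in PE and 78.3% of those lower in PBS. For higher genes 132 were shared, 13.2% of those higher in PE and 44.4% of those higher in PBS. No gene was called in opposite directions. Of the 248 genes at least 2-fold higher in PE, 31 were called higher in PBS, and of the 283 at least 2-fold lower, 182 were called lower there. The difference between these shares was not tested. The PBS total of 997 fell to 510 without PBS control replicate 3, to 558 without PBS control replicate 1 and to 392 with the PBS libraries fitted alone.

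**Figure D1:**
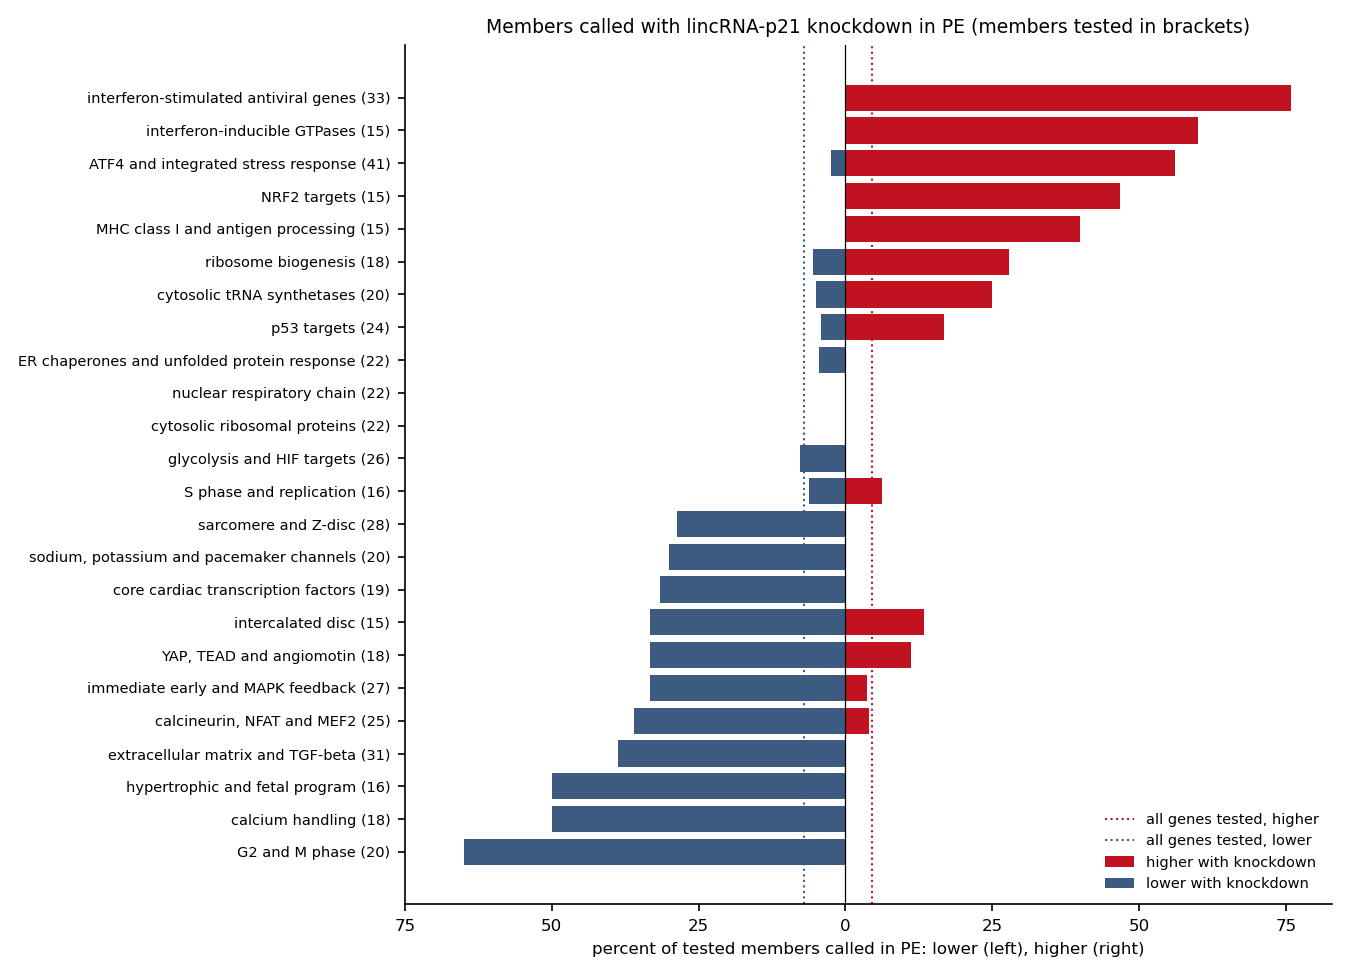
Share of tested members called in PE for 24 of the gene lists, to the right where higher and to the left where lower with the knockdown, with the number tested in brackets and dotted lines at 4.57% and 7.14% for all genes tested. Interferon-stimulated genes, GTPases and ATF4 genes reach farthest to the right, and G2 and M phase, calcium handling and hypertrophic genes farthest to the left.

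Interferon-stimulated antiviral genes rose together with the knockdown in PE. Of 33 tested, 25 rose, where 4.57% of all genes did, and the list's median log2 change was 1.27. In PBS 1 of the 33 was called higher and the median was 0.22. Interferons act on neighbouring cells and on the cell that makes them, and transcription factors such as IRF9 and IRF7 then switch on genes whose promoters carry an interferon-stimulated response element. Of the 15 interferon-inducible GTPases, which attack intracellular pathogens, 9 rose, with a median of 1.20. Leaving out single libraries gave 22 to 27 and 9 to 10 of these genes.

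Letters of the core of the interferon-stimulated response element were common in the promoters of these genes. Here and below a match is of letters only, and whether a factor binds there was not tested. In RefSeq windows of GRCm38.p6 from 250 bases before to 50 bases after the start, the core GAAANNGAA was searched on both strands, and repeated cores may overlap. It occurred in 26 of the 34 genes of both lists that have a window (76.5%), against 9.76% of all 27025 genes with one. Among the list's called genes the share was 73.9% and among its other genes 81.8%. The stretches below run 5′ to 3′ on the gene's strand and are shown because these genes are described next; capitals mark the core on either strand.
Ifit1, chr19:34640740-34640853, plus strand: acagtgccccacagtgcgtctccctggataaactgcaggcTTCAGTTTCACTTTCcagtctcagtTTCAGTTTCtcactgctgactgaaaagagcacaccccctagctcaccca
Ifit3, chr19:34583334-34583475, plus strand: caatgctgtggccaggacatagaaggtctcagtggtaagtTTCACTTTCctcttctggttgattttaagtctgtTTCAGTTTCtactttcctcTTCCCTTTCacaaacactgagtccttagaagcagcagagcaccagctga
Rsad2, chr12:26456523-26456611, minus strand: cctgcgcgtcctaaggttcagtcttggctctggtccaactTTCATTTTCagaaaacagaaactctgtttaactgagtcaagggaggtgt
Cxcl10, chr5:92349054-92349139, minus strand: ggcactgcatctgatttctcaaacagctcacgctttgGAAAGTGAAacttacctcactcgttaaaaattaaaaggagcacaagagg
Irgm2, chr11:58214873-58214961, plus strand: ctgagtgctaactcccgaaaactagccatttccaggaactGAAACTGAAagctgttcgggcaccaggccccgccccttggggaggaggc
Isg15, chr4:156200836-156200936, minus strand: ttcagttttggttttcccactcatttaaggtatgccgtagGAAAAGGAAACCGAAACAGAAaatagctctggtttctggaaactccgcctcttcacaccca

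Among the antiviral effectors, Ifit1, whose protein binds foreign RNA ends, read 289, 160 and 187 in control and 831, 824 and 664 in knockdown libraries. It rose by 1.90 ± 0.19 (limma adjusted p = 1.3e-06), against 0.56 in PBS, and its promoter carries 3 cores between 76 and 109 bases before the start. The groups lay apart, with PE control replicate 1 the highest control. Rsad2, the gene of viperin, which makes a chain-terminating nucleotide, read 118, 64.8 and 93.4 in control and 329, 382 and 336 in knockdown libraries, a rise of 1.95 ± 0.23 (limma adjusted p = 6.7e-06). Ifit3 read 238, 138 and 151 against 633, 545 and 544 (1.74 ± 0.19, limma adjusted p = 2.4e-06). Again PE control replicate 1 was the highest control and no libraries overlapped. Isg15, a ubiquitin-like modifier, read 236, 111 and 98.8 in control and 246, 416 and 385 in knockdown libraries. Its rise was 1.31 (limma adjusted p = 0.0048), and PE knockdown replicate 1 lay only just above the highest control. Usp18, which removes that modifier and damps the interferon receptor, read 219, 112 and 113 against 384, 439 and 406 (1.54 ± 0.30, limma adjusted p = 0.0019). Mx2, Oasl1 and Rtp4 rose by 1.86, 1.66 and 1.71.

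The median change was 1.31 over 27 effectors and 0.81 over 4 transcription factors. The transcription factor genes Irf7 and Irf9 rose by 1.27 and 0.82 (limma adjusted p = 0.00075 and 0.00042). Cxcl10, a chemokine that draws T cells, read 179, 158 and 175 in control and 559, 626 and 468 in knockdown libraries, a rise of 1.68 ± 0.16 with wide separation (limma adjusted p = 5e-07). It overlaps Art3, whose value is at least as high, so part of its reads may belong to that gene. Among the GTPases, Irgm2 read 261, 166 and 220 in control and 655, 645 and 501 in knockdown libraries, a rise of 1.49 ± 0.15 (limma adjusted p = 1.1e-06). Gbp2 read 128, 112 and 112 against 288, 259 and 265, a rise of 1.20 ± 0.12 (limma adjusted p = 1.5e-06) with the libraries of each group close together. Iigp1 rose by 1.72. Gbp6, low in all libraries, rose by 2.22 ± 0.34 (limma adjusted p = 0.00016).

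Sensors of foreign nucleic acid rose in part, while interferon genes themselves were near 0. Of 9 sensors tested 5 rose (55.6%, against 4.57% of all genes tested). Ddx58, the RNA sensor RIG-I, read 1247, 910 and 975 in control and 1913, 1703 and 1831 in knockdown libraries, a rise of 0.81 ± 0.11 (limma adjusted p = 3.5e-05). Its regulator Dhx58 rose by 1.45 ± 0.24, the endosomal RNA receptor Tlr3 by 0.71 ± 0.15 and the DNA sensor Ifi204 by 1.07 ± 0.19 (limma adjusted p = 0.00031, 0.0026 and 0.00056). The interferon genes Ifnb1, Ifna4, Ifng and Ifnl3 were too low to test. Ifnb1 read 0 in all 3 control libraries and 0, 1.99 and 0.993 in the knockdown libraries, which is at most about 2 reads, and gives no fold. The 4 receptor genes and the 2 genes of their JAK kinases had no call by limma and none at an unadjusted p under 0.05. As stated above, leukocyte markers, of cells that could carry such genes, were not called; their part in these rises was not tested.

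Antigen presentation moved less. Of 15 genes of MHC class I and antigen processing 6 rose, with a median of 0.35, but the count was 2 without PE control replicate 3, 3 without PE control replicate 2, PE knockdown replicate 2 or PE knockdown replicate 3, and 10 without PE knockdown replicate 1. In PBS 1 of the 15 was called higher, and the median, 0.33, was near that in PE. H2-Q4, a nonclassical class I gene, rose by 1.10 ± 0.16 and Tap2, a subunit of the peptide transporter, by 1.05 ± 0.16 (limma adjusted p = 6.8e-05 and 0.00012), and both kept their calls whichever library was left out. B2m, the shared light chain, was 0.24 (limma adjusted p = 0.36). H2 genes resemble each other closely, and counting could split their reads.

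Genes of the integrated stress response rose as well. In that response kinases of eIF2 slow protein synthesis when amino acids, heme or folding capacity run short, while translation of ATF4 increases, and ATF4 turns on amino acid synthesis and transport. Of 41 genes of the list 23 rose (56.1%, against 4.57% of all genes tested), with a median of 0.40, and 15 rose without PE knockdown replicate 3. The 1 called lower was the amino acid transporter gene Slc38a2 (-0.35, limma adjusted p = 0.036), a call lost in 7 of the 12 fits that left out 1 library (without PE knockdown replicate 2 the adjusted p was 0.12). In PBS 4 were called higher and the median was 0.09. By role, 4 of 6 transcription factors, 3 of 4 pseudokinases and inhibitors, 7 of 11 amino acid enzymes and 5 of 8 transporters rose.

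ATF4 and its partners bind a CARE element, with the core TGATGNAA. It occurred in 11 of the 37 ATF4-list genes with a promoter window (29.7%), against 4.51% of all genes with one, and its share was 31.6% in called and 27.8% in other genes of the list. The stretches below are given as above, with the core on either strand in capitals, for 3 genes described next.
Asns, chr6:7693210-7693272, minus strand: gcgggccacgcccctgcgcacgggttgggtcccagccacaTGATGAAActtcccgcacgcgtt
Chac1, chr2:119351009-119351096, plus strand: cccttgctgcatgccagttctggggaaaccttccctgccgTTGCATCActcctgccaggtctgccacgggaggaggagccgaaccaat
Nupr1, chr7:126625533-126625620, minus strand: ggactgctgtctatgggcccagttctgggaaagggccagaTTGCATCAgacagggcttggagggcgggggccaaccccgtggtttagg

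Trib3, a pseudokinase that feeds back on ATF4, read 180, 164 and 156 in control and 822, 1108 and 974 in knockdown libraries. It rose by 2.52 ± 0.12 (limma adjusted p = 2.1e-10), with libraries of each group close together and far from the other group. Atf4 itself read 6233, 6109 and 6733 against 11426, 10192 and 8954 (0.67 ± 0.11, limma adjusted p = 0.00043). Atf5, a related factor, read 3649, 3665 and 3339 against 8985, 8063 and 7453 (1.20 ± 0.14, limma adjusted p = 5e-06). Ddit3, the factor CHOP, read 421, 407 and 380 in control and 845, 886 and 818 in knockdown libraries. It rose by 1.08 (limma adjusted p = 3.6e-07), and the partner gene Cebpg by 0.83. Adm2, a secreted peptide of the adrenomedullin family, read 22.6, 22.3 and 20.6 against 98.5, 76.8 and 81.4, a rise of 1.91 ± 0.25 (limma adjusted p = 3.1e-05). None of these groups overlapped.

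Of the enzymes and transporters, the asparagine synthetase gene Asns rose by 0.69 (limma adjusted p = 0.00021), while it was 0.01 in PBS, and its core lies 16 to 23 bases before the start. The mitochondrial folate enzyme gene Mthfd2 rose by 0.74, the amino acid transporter heavy chain gene Slc3a2 by 0.97 and the cystine transporter gene Slc7a11 by 0.60. Nupr1, a stress-induced chromatin protein gene, rose by 1.08 ± 0.17 (limma adjusted p = 0.0002). Chac1, which degrades glutathione, rose by 0.47 (limma adjusted p = 0.012), a call lost without PE control replicate 1 (0.067), PE knockdown replicate 2 (0.063) or PE knockdown replicate 3 (0.064). Among 20 cytosolic tRNA synthetases, which load amino acids onto tRNA, 5 rose and 1 fell with a median of 0.17 (3 rose without PE knockdown replicate 3, 8 without PBS knockdown replicate 2 and 9 when scaled to the same total). Aars, for alanine, read 5358, 5041 and 4637 in control and 7471, 7571 and 7088 in knockdown libraries, a rise of 0.56 ± 0.10 without overlap (limma adjusted p = 0.00047). Vars, for valine, went the other way, from 2732, 2331 and 2045 to 1152, 1206 and 1196 (-0.99 ± 0.12, limma adjusted p = 1.7e-05).

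Few genes of the endoplasmic reticulum branch of the stress response were called. Of 22 chaperone and unfolded protein response genes limma called 0 higher and 1 lower (2 and 2 at an unadjusted p under 0.05), with a median of 0.04. The 1 was Atf6, a membrane-bound sensor of unfolded protein, at -0.44 ± 0.09 (limma adjusted p = 0.0026). Genes that NRF2 controls, which protect against oxidants, did rise, 7 of 15 (46.7%, against 4.57% of all genes tested) with a median of 0.42. Hmox1, heme oxygenase, read 6292, 5914 and 5796 in control and 10217, 10173 and 9198 in knockdown libraries, a rise of 0.72 ± 0.10 (limma adjusted p = 5.3e-05). Osgin1 rose by 1.35 and the glutathione transferase gene Gsta4 by 0.70. Sqstm1, the autophagy receptor p62 and a partner of the NRF2 system, read 11084, 11049 and 10595 against 22130, 23830 and 23807. That rise of 1.09 ± 0.10 (limma adjusted p = 2.7e-07) stood beside 0.65 in PBS, also called. Of 24 p53 targets 4 rose (16.7%, against 4.57% of all genes tested) and 1 fell (4.17%, against 7.14%). Only 2 rose without PE control replicate 1, PE control replicate 3 or PE knockdown replicate 1. Gadd45a, a stress sensor, rose by 1.05 and Btg2, an antiproliferative gene, fell by 0.49 (limma adjusted p = 0.00025 and 0.0017).

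**Figure D2:**
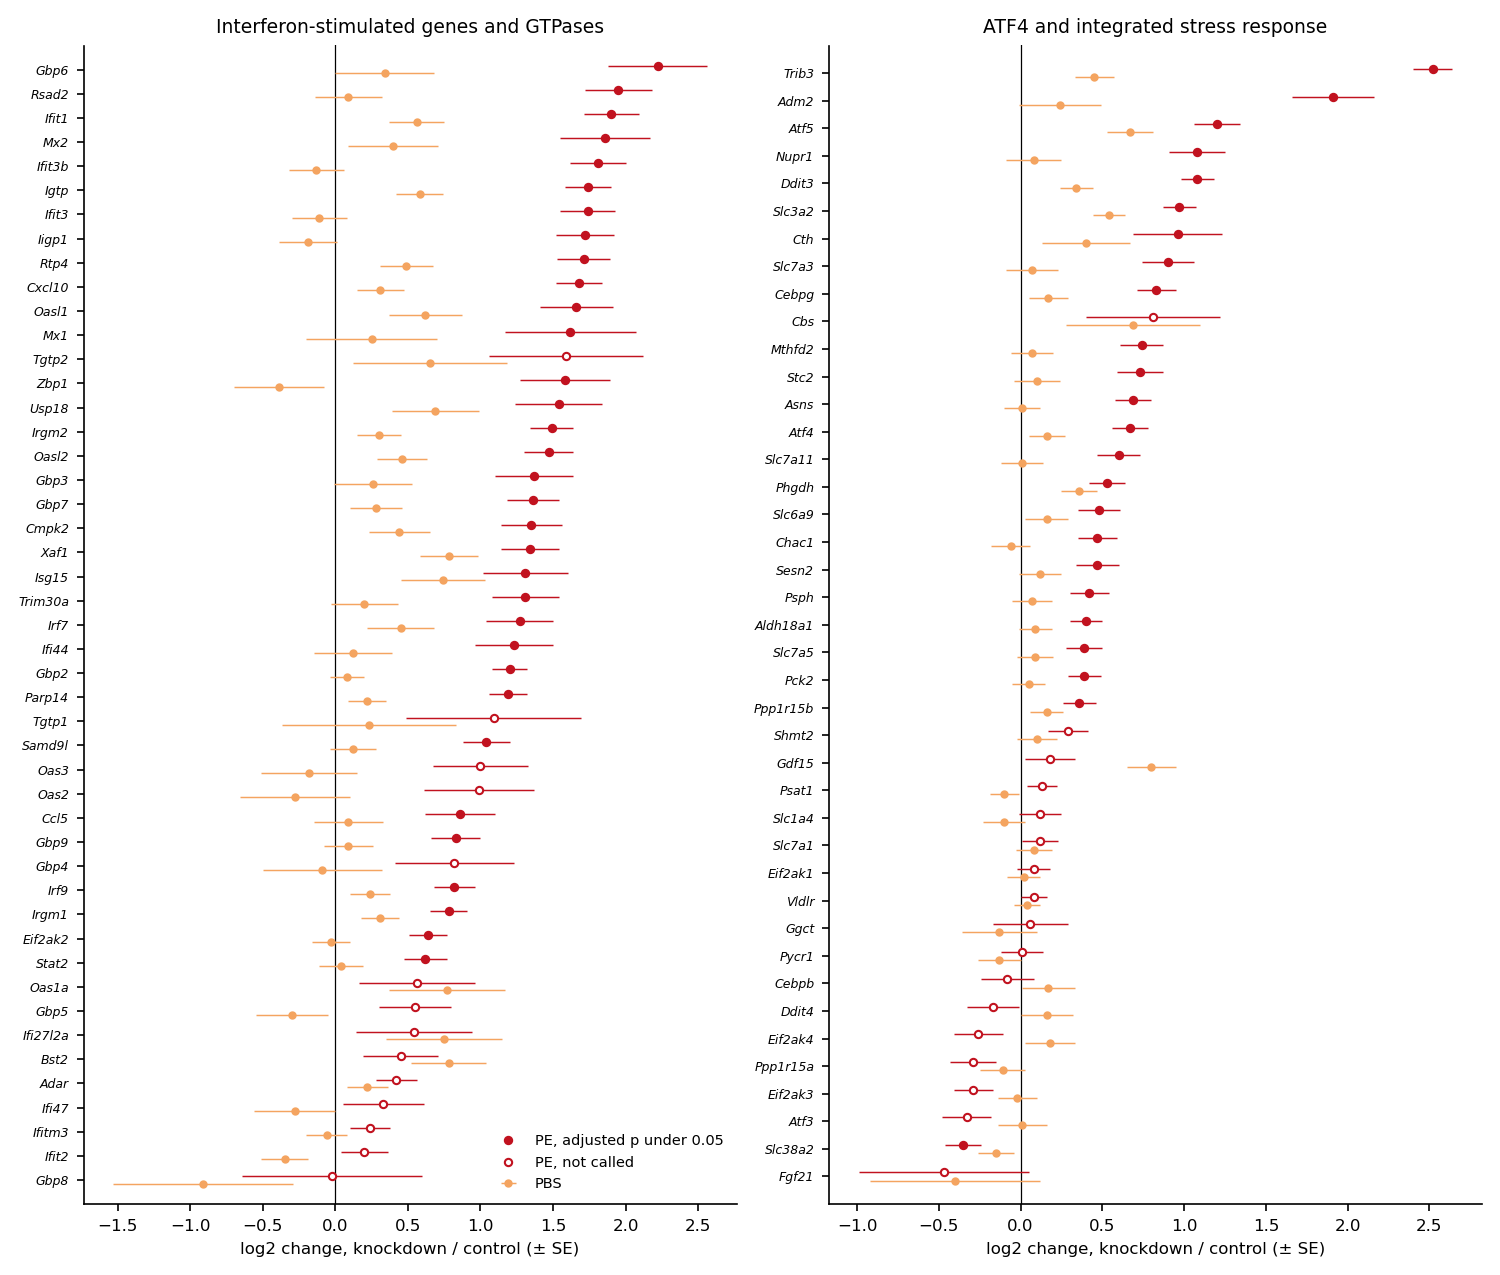
Log2 change with the knockdown, with its SE, for tested genes of the interferon-stimulated and GTPase lists (left) and the ATF4 list (right), in PE (red, filled where called) and in PBS (orange). Most red points of the left panel lie right of the orange points of the same gene, and Trib3 tops the right panel at 2.52 in PE.

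The knockdown effect differed between PE and PBS for 12 genes (0.055% of genes tested) by the interaction term, each with a larger log2 change in PE, while limma called 0 in the other direction (1157 of the 2143 genes at an unadjusted p under 0.05). The count ran from 3 without PBS control replicate 3 to 22 without PE control replicate 1. Other single libraries also moved it by more than 1.5 times: it was 6 without PBS control replicate 1, 5 without PBS knockdown replicate 3, 4 without PE control replicate 2, 5 without PE control replicate 3, 7 without PE knockdown replicate 2, 20 without PBS knockdown replicate 1 and 21 without PBS knockdown replicate 2. The absence of calls in the other direction did not hold in every alternative. With library quality weights 273 genes had a higher and 295 a lower log2 change in PE than in PBS. Without 3 libraries far from their groups these counts were 74 and 69. Leaving out PBS knockdown replicate 1 or 2 or PE knockdown replicate 1 gave 2 lower calls each. Of the 12, Ifit3b, Ifit3, Iigp1, Rsad2, Ifi204, Cxcl10, Irgm2 and Gbp2 belong to the interferon lists above. Trib3, Ifit3 and Ifit3b kept their call in all 20 alternatives run.

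Their group means fell into more than one pattern. Ifit3b went from 52.6 ± 5.93 to 47.9 ± 5.26 in PBS and from 55.6 ± 12.5 to 194 ± 9.37 in PE (SD, n = 3), so that only the PE knockdown libraries were high. Trib3 went from 561 ± 27.1 to 767 ± 95.7 in PBS and from 167 ± 12.1 to 968 ± 143 in PE, where the PE control libraries are the low ones. Zdhhc23, a palmitoyltransferase gene, likewise read 67.0 ± 11.9 and 85.2 ± 11.6 in PBS and 19.7 ± 3.23 and 94.7 ± 1.38 in PE. Igfbp5, which binds insulin-like growth factors, read 2436 ± 106 and 2375 ± 380 in PBS and 739 ± 46.2 and 1680 ± 454 in PE. In each of these 3 genes PE control was the lowest group, as it was for Iigp1, Irgm2, Gbp2 and Dtx3l. Gbp2 read 267 ± 17.3 and 284 ± 24.2 in PBS and 117 ± 9.53 and 271 ± 15.2 in PE, so its PE knockdown level was that of the PBS groups. Dtx3l, a ubiquitin ligase gene, read 427 ± 10.5 and 481 ± 10.2 in PBS and 367 ± 17.5 and 742 ± 33.7 in PE, the highest group being again the PE knockdown.

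**Figure D3:**
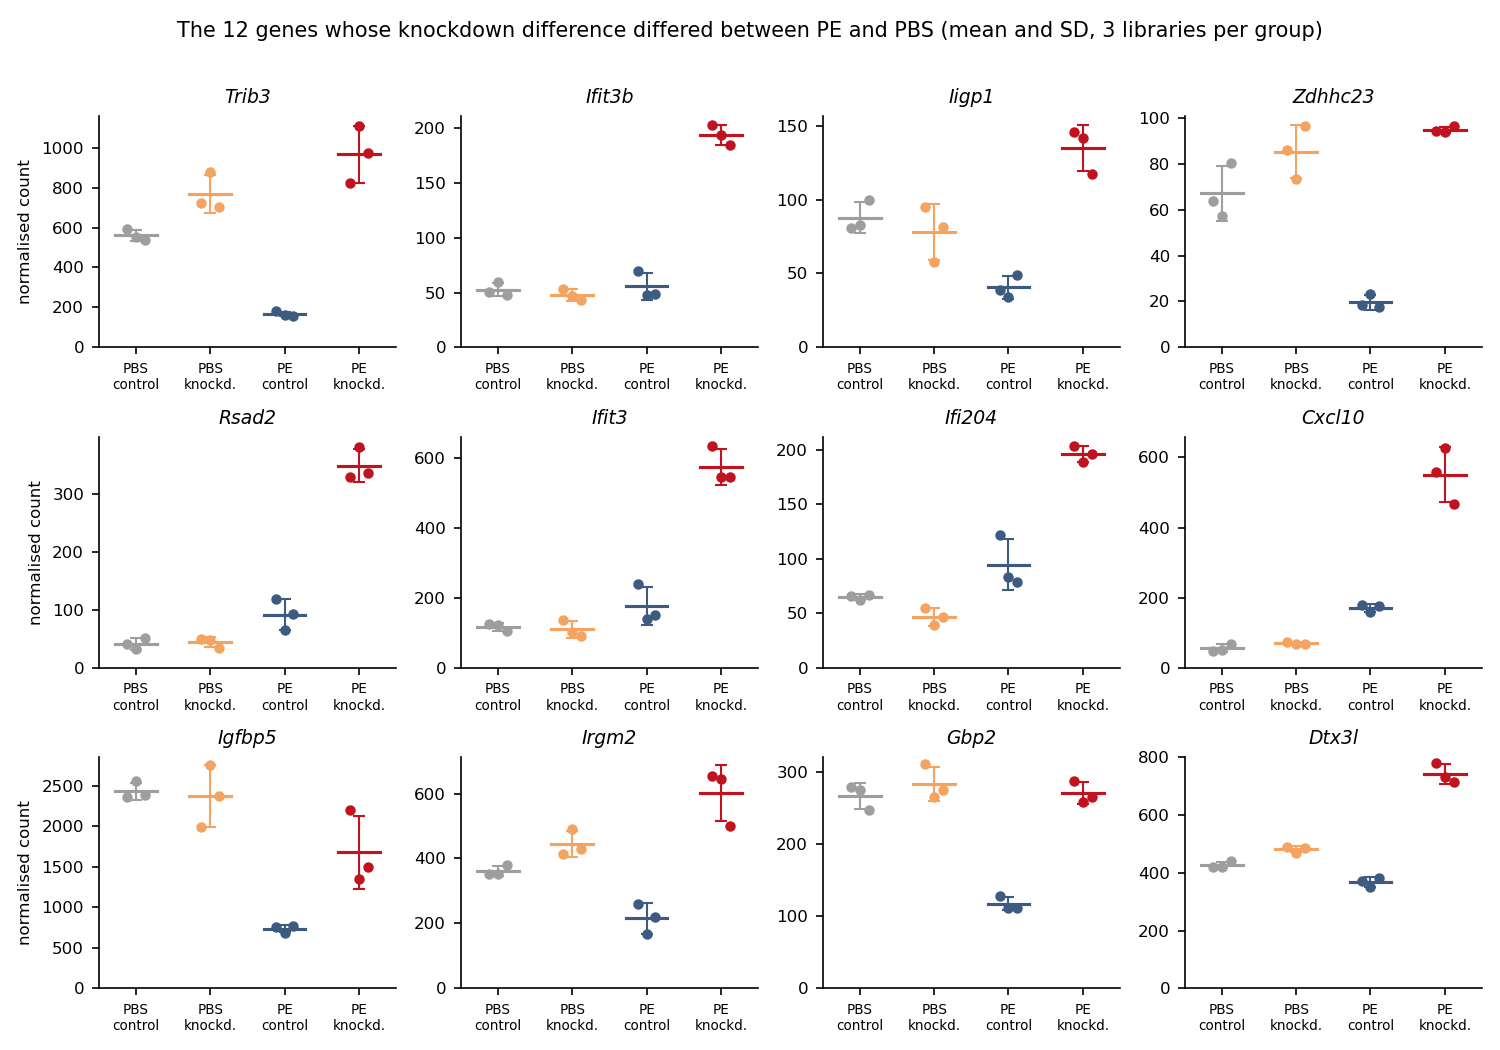
Normalised counts of the 12 genes whose knockdown difference differed between PE and PBS, 1 point per library with the group mean and SD. Ifit3b is near 50 in the 3 groups other than PE knockdown, at 194, while 7 of the 12, Trib3, Zdhhc23, Igfbp5, Iigp1, Irgm2, Gbp2 and Dtx3l, are lowest in PE control.

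Among genes called higher with a mean of at least 50 in the PE libraries, the highest log2 changes were in the 3-beta-hydroxysteroid dehydrogenase genes, whose enzymes convert steroid precursors. Hsd3b1 read 9.70, 12.8 and 10.9 in control and 458, 423 and 425 in knockdown libraries, 39.2-fold higher by the means (log2 change 5.18 ± 0.35, limma adjusted p = 1.1e-08). Hsd3b6 read 19.4, 17.0 and 18.5 against 232, 229 and 231 (3.59 ± 0.32, limma adjusted p = 2.7e-07). Both groups were tight, and both genes also rose in PBS, by 4.47 and 3.75. The genes are related copies, so reads could have been split between them, which was not measured. Of the 8 other steroid enzyme genes tested limma called 0 higher (1 at an unadjusted p under 0.05) and 1 lower, Hsd11b1, which regenerates active glucocorticoid (-0.85, a call lost without PE control replicate 1, adjusted p = 0.068). Dio2, which activates thyroid hormone, rose by 1.78, the mast cell protease gene Mcpt4 by 1.68 and the ubiquitin ligase gene Lonrf2 by 1.67. Among the largest rises in level, the translation factor gene Eif5 went up by 0.63, Bclaf1 by 0.83 and the surface glycoprotein gene Cd24a by 0.67.

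Genes of the hypertrophic response fell in part. Of 16 hypertrophic and fetal genes 8 fell, where 7.14% of all genes did, with a median of -0.44, and 5 fell without PE control replicate 2. In PBS 5 of the 16 fell, where 3.21% of all genes tested did, and 1 rose, with a median of -0.34. The interaction term called none of the 16. Nppb, the natriuretic peptide BNP, read 21093, 22931 and 20555 in control and 13453, 13145 and 13254 in knockdown libraries. It fell by 0.69 on the log2 scale (limma adjusted p = 0.0011), with knockdown libraries tightly grouped below all controls. Nppa, the atrial peptide, was -0.18 (limma adjusted p = 0.35) and the adult myosin gene Myh6 -0.53 (limma adjusted p = 0.11). Myh7, the fetal myosin gene, was -0.45 (limma adjusted p = 0.017) and Acta1, skeletal actin, -0.43 (limma adjusted p = 0.013). Neither call was stable. Myh7 lost it without PE control replicate 1 (0.12) or 2 (0.051) and PE knockdown replicate 2 (0.094) or 3 (0.072), and Acta1 without PE control replicate 1 (0.076) or 2 (0.060) or PE knockdown replicate 1 (0.061). Acta1 also lost it when libraries were scaled to the same total. Ccn2, a secreted matrix regulator, read 18588, 18878 and 17421 against 10538, 11321 and 12034 (-0.70 ± 0.09, limma adjusted p = 3.5e-05), while it was -0.15 in PBS. Xirp2, an actin-binding protein of the cell ends, fell by 1.05.

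The calcineurin catalytic subunit gene Ppp3ca fell with the knockdown. Calcineurin is a phosphatase that calcium activates and that sends NFAT to the nucleus, and MEF2 factors act on many of the same genes. Ppp3ca (chromosome 3, 268 kb long) read 1853, 1806 and 1902 in control and 428, 355 and 408 in knockdown libraries, 4.67-fold lower by the means (log2 change -2.22 ± 0.11, limma adjusted p = 2.1e-10). The other catalytic subunit genes Ppp3cb and Ppp3cc were -0.35 and -0.13 (limma adjusted p = 0.054 and 0.61, the former 0.011 without PBS knockdown replicate 2, 0.040 without PBS control replicate 2 and 0.049 without PBS knockdown replicate 3) and the regulatory subunit gene Ppp3r1 0.02. Rcan1, an inhibitor that calcineurin itself induces, read 2847, 3146 and 3325 in control and 3194, 2808 and 2749 in knockdown libraries. The groups overlapped, at -0.09 ± 0.10 (limma adjusted p = 0.64). Of 25 genes of calcineurin, NFAT and MEF2 tested 9 fell, with a median of -0.34, and 1 rose, a call lost without PE control replicate 1 or 2 or PE knockdown replicate 1 or 3. In PBS 6 of the 25 fell, with a median of -0.08, and the interaction term called none. The summed value of the 3 catalytic subunit genes in PBS ran from 4302 to 4306 in control and from 1858 to 2426 in knockdown libraries. Of the 3 MEF2 factor genes 2 fell in PBS, with a median of -0.94. Mef2c read 2187, 2278 and 2340 against 1033, 964 and 930 (-1.22 ± 0.09, limma adjusted p = 2.2e-08), and Mef2a and Nfat5 fell by 1.20 and 1.12. Of the 10 genes of the list that span at least 100 kb 8 fell, and of the 4 under 30 kb none did.

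Of 26 genes of adrenergic and G protein signalling 5 fell (19.2%, against 7.14% of all genes tested), with a median of -0.09. These were 3 of 8 effectors, 1 of 6 G proteins and 1 of 6 RGS proteins, and limma called none of the 6 receptors (1 lower at an unadjusted p under 0.05). The receptor gene Adra1b was 0.02 and Adra1a was too low for a firm value (means of 3.21 and 1.71). Prkca, the calcium-dependent protein kinase C, read 1412, 1344 and 1443 in control and 425, 415 and 378 in knockdown libraries, a fall of 1.78 (limma adjusted p = 1.6e-09). Prkce, another isoform, fell by 1.38, the phospholipase gene Plcb1 by 1.29 and Rgs17, which turns G proteins off, by 2.28. All of these also had negative values in PBS, from -2.24 to -0.66.

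**Figure D4:**
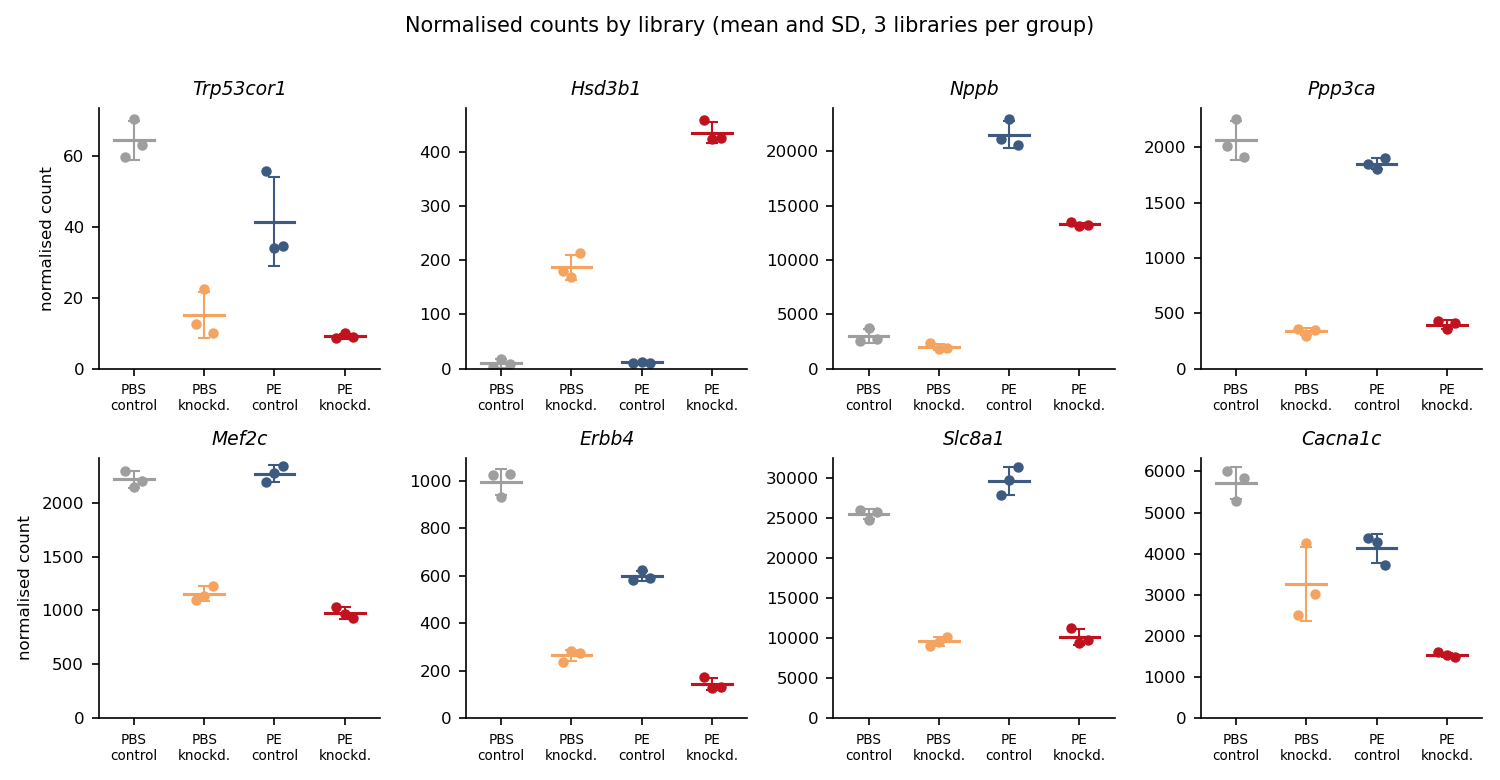
Normalised counts by library in the 4 groups for Trp53cor1, Hsd3b1, Nppb, Ppp3ca, Mef2c, Erbb4, Slc8a1 and Cacna1c, with the group mean and SD on axes that start at 0. In every panel the PE knockdown libraries lie apart from the PE control libraries, above them for Hsd3b1 and below them for the others.

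Calcium handling genes fell in part. Of 18 tested 9 fell, with a median of -0.39 (7 to 11 when single libraries were left out), and 8 of those 9 span at least 100 kb. Slc8a1, the sodium-calcium exchanger that removes calcium after each beat, read 27828, 29666 and 31340 in control and 11233, 9344 and 9712 in knockdown libraries. It was 2.93-fold lower by the means (log2 change -1.56 ± 0.11, limma adjusted p = 9.6e-09). Cacna1c, the pore of the L-type calcium channel, read 4380, 4277 and 3729 against 1602, 1534 and 1493 (-1.42 ± 0.14, limma adjusted p = 8.3e-07). Both genes lay far from overlap and fell in PBS too, by 1.41 and 0.84. The calcium release channel gene Itpr1 fell by 0.70. Trdn, a scaffold of the release unit, was -0.66 (limma adjusted p = 0.0075), a call lost without PE control replicate 1 (0.057). The pump gene Atp2a2 and its inhibitor Pln were -0.17 and -0.10 (limma adjusted p = 0.53 and 0.82). Of 20 sodium, potassium and pacemaker channel genes 6 fell, with a median of -0.27. Among them Kcnd2, which carries the transient outward current, fell by 1.74, the potassium channel gene Kcnj3 by 1.22 and Kcnip2, an accessory subunit of Kcnd2 channels, by 0.96.

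Contractile and junction genes fell in part. Of 28 sarcomere and Z-disc genes 8 fell (28.6%, against 7.14% of all genes tested), with a median of -0.37. The count was 4 without PE control replicate 1, 5 without PE knockdown replicate 2 or 3 and 13 without PBS knockdown replicate 2. Tpm1, alpha-tropomyosin, read 171752, 159661 and 155734 in control and 106475, 97400 and 100374 in knockdown libraries, a fall of 0.68 without overlap (limma adjusted p = 0.0065). Myom1, which links thick filaments, fell by 0.85, the muscle scaffold gene Cmya5 by 0.91 and Tcap, the cap of titin, by 0.78. Of 15 intercalated disc genes 5 fell and 2 rose, 1 without PE control replicate 1 or 2 or PE knockdown replicate 1. Cdh2, N-cadherin, read 22715, 21753 and 24341 against 12445, 9917 and 9599 (-1.11 ± 0.12, limma adjusted p = 1.7e-06), while Ctnna3, an adherens junction catenin, fell by 1.37 and vinculin, Vcl, by 0.60. Pkp2, a desmosome plaque gene, fell by 0.41, and the gap junction gene Gja5 rose by 0.48 (limma adjusted p = 0.0057).

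Some genes of growth factor signalling fell with the knockdown. Erbb4, the neuregulin receptor of heart muscle, read 583, 625 and 592 in control and 174, 127 and 132 in knockdown libraries, 4.15-fold lower by the means (log2 change -2.06 ± 0.13, limma adjusted p = 2.8e-09). Its value in PBS was -1.91. Of 15 genes of the neuregulin and ErbB list 4 fell (26.7%, against 7.14% of all genes tested) and 1 rose (6.67%, against 4.57%). Egfr fell by 0.78 and its ligand gene Ereg by 0.76, and another ligand gene, Tgfa, rose by 0.71. Of 18 genes around YAP and TEAD, the growth-control factors of the Hippo pathway, 6 fell and 2 rose, with 1 called higher when any of the 6 PE libraries, PBS control replicate 1 or PBS control replicate 3 was left out. Amot, which holds YAP outside the nucleus, read 423, 400 and 385 against 107, 88.7 and 106 (-1.99 ± 0.14, limma adjusted p = 2e-08). Yap1 and Tead1 fell by 0.81 and 0.92, and Tead2 rose by 0.55. Of 19 core cardiac transcription factors 6 fell, Sox5 by 2.04 and Foxo3 by 0.74 among them, and Gata4, Nkx2-5 and Tbx5 were -0.27, -0.21 and -0.19 (limma adjusted p = 0.14, 0.51 and 0.44, that of Gata4 being 0.035 without PBS knockdown replicate 2).

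Matrix and early response genes fell in part. Of 31 genes of the extracellular matrix and TGF-beta 12 fell, with a median of -0.29. The growth factor gene Tgfb3 read 2978, 3295 and 2926 in control and 1581, 1366 and 1331 in knockdown libraries, a fall of 1.11 (limma adjusted p = 4.4e-07), against -0.46 in PBS. The collagen gene Col8a1 fell by 0.75, the co-receptor gene Tgfbr3 by 0.72 and thrombospondin 1, Thbs1, by 0.61. Smad6, an inhibitor of BMP signalling, fell by 1.90. Of 27 genes of the early response to growth signals and of feedback on MAP kinases 9 fell, with a median of -0.30, while 5 fell without PE knockdown replicate 2 or 3, and 14 without PBS knockdown replicate 2. Egr1, a factor that growth signals switch on within minutes, read 4106, 3916 and 3550 in control and 2617, 1818 and 1644 in knockdown libraries, a fall of 0.96 (limma adjusted p = 0.0006) in which PE knockdown replicate 1 was the nearest to the controls.

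Mitotic genes fell by a small margin. Of 20 genes of the G2 and M phases 13 fell in PE (65.0%, against 7.14% of all genes tested), with a median of -0.43. In PBS 12 fell, where 3.21% of all genes tested did, with a median of -0.51. The PE count was 4 without PE control replicate 1, 5 without PE control replicate 3, 6 without PE knockdown replicate 3, 8 without PE knockdown replicate 2 and 8 when scaled to the same total. Top2a, the topoisomerase of dividing cells, read 2271, 1908 and 2164 in control and 1388, 1463 and 1462 in knockdown libraries, a fall of 0.55 without overlap (limma adjusted p = 0.003). The motor gene Cenpe fell by 0.72.

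Among all genes called lower with a mean of at least 50, those that fell most were long. Of the 20 lowest, 14 span at least 100 kb in the GENCODE annotation (median span 256 kb), and of the 20 highest 0 do (median 11.4 kb). Among the 12099 genes with a mean of at least 50 over all libraries, 1403 span 100 to 300 kb and 299 more than 300 kb. Most genes are thus shorter than 100 kb, and whether 0 of the 20 highest is fewer than that share gives was not tested. Ralgapa2, which restrains Ral GTPases and spans 272 kb, read 1148, 1289 and 1201 in control and 226, 234 and 255 in knockdown libraries (-2.34 ± 0.12, limma adjusted p = 5.4e-10). Maml3, a Notch co-activator gene of 419 kb, fell by 2.28 and Sema5a, a guidance cue of 452 kb, by 2.22. The phosphatase gene Ppm1l (244 kb) fell by 1.90 and the exocyst gene Exoc6b (451 kb) by 1.82. Of the 8 genes with the largest loss of counts 4 span at least 100 kb, with Pam, a peptide-processing enzyme (301 kb), at -0.55 and Sorbs2, a Z-disc adaptor (320 kb), at -0.62 among these.

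The same held across the 12099 genes with a mean of at least 50, of which 11.9% were called lower. The share lower was 4.15% under 10 kb, 4.34% from 10 to 30 kb, 11.6% from 30 to 100 kb, 35.9% from 100 to 300 kb and 76.3% above 300 kb (228 of 299 genes, with 2 higher). The median log2 changes were 0.05, 0.06, -0.04, -0.27 and -0.70. Scaled to the same total they were 0.14, 0.15, 0.05, -0.19 and -0.62. Above 300 kb the medians of the 3 PE knockdown libraries against the control mean were -0.64, -0.74 and -0.75, PE knockdown replicate 1 being the nearest to 0. In PBS the shares lower were 1.28%, 1.85%, 4.74%, 16.6% and 44.1%. Several lists hold long genes that fell, and their counts stand beside the 35.9% and 76.3% given above for all genes from 100 to 300 kb and above 300 kb. Of the 12, 10, 5 and 5 genes of at least 100 kb in the calcium handling, calcineurin, channel and core factor lists, 8, 8, 4 and 4 fell, and of their 3, 4, 8 and 6 genes under 30 kb, 0, 0, 1 and 0. In the adrenergic list 4 of 8 genes of at least 100 kb and 0 of 11 under 30 kb fell, and in the ErbB list 3 of 5 and 1 of 6. In the sarcomere list 2 of 4 long and 6 of 19 short genes fell, and in the matrix list 3 of 6 and 6 of 16. The hypertrophic list has 1 gene of at least 100 kb, which fell, as did 5 of its 11 under 30 kb, and the early response list has 0, with 8 of its 22 short genes lower. How far span accounts for any single gene's fall was not tested.

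**Figure D5:**
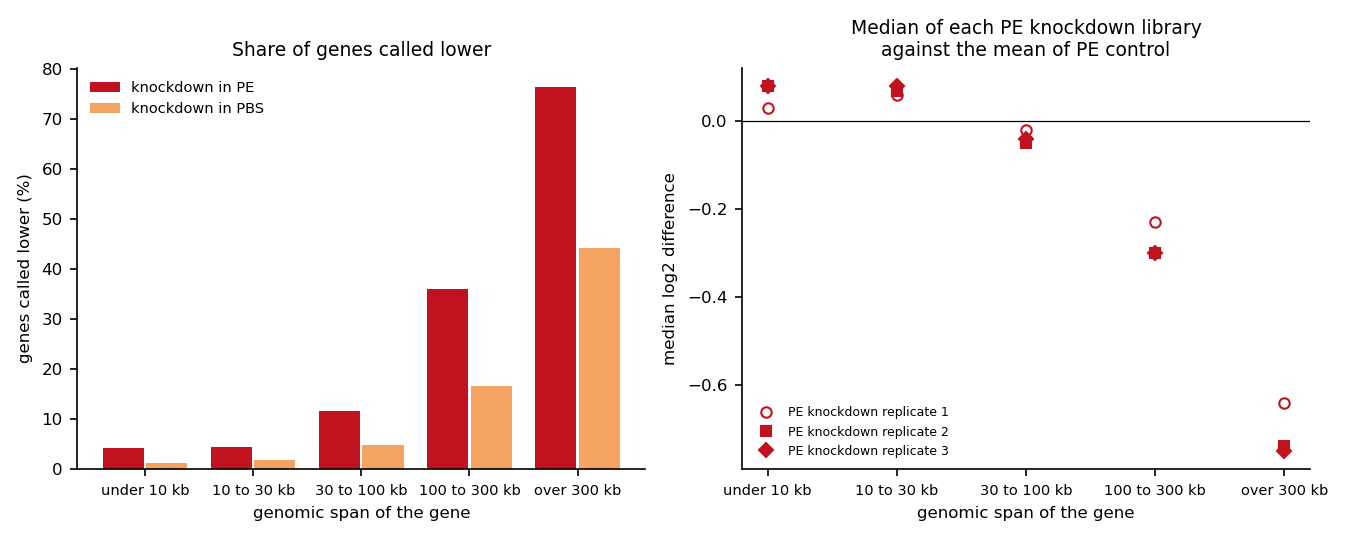
Left, the percentage of genes called lower in each class of genomic span, for the knockdown in PE (red) and in PBS (orange); right, the median log2 difference of each PE knockdown library from the PE control mean. The share lower in PE goes from 4.15% under 10 kb to 76.3% above 300 kb, and the medians of all 3 libraries are lowest above 300 kb.

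Of 18 ribosome biogenesis genes 5 rose (27.8%, against 4.57% of all genes tested) and 1 fell, with a median of 0.29, and 2 rose without PE control replicate 2, 3 without PE control replicate 1, PE knockdown replicate 2 or PE knockdown replicate 3 and 8 without PBS knockdown replicate 2. Polr1a, the large subunit of RNA polymerase I, fell by 0.83 (limma adjusted p = 1.1e-05) and Wdr43, a processing factor, rose by 0.52 (limma adjusted p = 0.0049). Of 22 cytosolic ribosomal protein genes limma called none (1 higher at an unadjusted p under 0.05), with a median of 0.12. The 22 nuclear respiratory chain genes had no call and none at an unadjusted p under 0.05, while the 13 mitochondrially encoded genes had no call and 1 lower at that level. The adenosine receptor gene Adora2a read 54.9, 31.9 and 23.9 in control and 23.5, 36.9 and 33.8 in knockdown libraries, with overlap (-0.17 ± 0.28, limma adjusted p = 0.80), and turns to 0.16 without PE control replicate 1.

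Of 2750 long noncoding RNAs tested, the target included, 68 rose and 38 fell, with a median of 0.07. Both are smaller shares than the 4.57% and 7.14% of all genes tested, but the shares were not matched for level, so they do not show that noncoding RNAs responded less. Of 15779 protein-coding genes 889 rose and 1503 fell. Snhg1, a host of small nucleolar RNAs, read 280, 350 and 367 in control and 747, 778 and 876 in knockdown libraries, a rise of 1.27 ± 0.16 without overlap (limma adjusted p = 1.7e-05). Mir17hg, the host of a growth-promoting miRNA cluster, read 84.0, 90.3 and 113 against 226, 209 and 210 (1.17 ± 0.24, limma adjusted p = 0.0022).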

How the data were processed

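Gene expression was measured by RNA sequencing of 12 libraries of neonatal mouse cardiomyocytes, 3 in each of 4 groups, with paired reads of 100 bases per the labels' protocols. GRCm38.p6, STAR, SAMtools and featureCounts are named in the submitters' processing notes, without versions. Whether counting used strand is not given in the sources used here. Deposited signal values are a normalised count per gene: in each library 100% of values were whole multiples of the smallest (tolerance 0.001 of it), as counts that the authors scaled by 1 factor per library would be. In PE knockdown replicates 2 and 3 the smallest value, 0.997 and 0.993, is too near 1 to accept the multiples as recovered reads, so no count test was used. The totals of these multiples, 21325485 to 22139681, are the depth behind each value, and no column was left without a sample (0 columns). Gene names came from GENCODE M21 by identifier without version, and genes without a name held 0.2% of the signal. Promoter windows and their sequences are from RefSeq.

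Values were tested as log2(value + 1) with limma 3.58.1 (trend) in R 4.3.3 for 21799 of 55416 genes with a mean of at least 1, with 1 mean per group over all 12 libraries and 8 residual degrees of freedom, two-sided, with Benjamini-Hochberg adjustment over all genes tested. Fold changes on this scale understate those of low genes. The code recovered changes of known size in data simulated from these libraries, with normal noise of the same spread in every library. This checks the code only, as libraries that differ in spread and the lowest genes were not simulated. Alternatives were another pseudocount, other filters and scalings, fits of the compared libraries alone, a replicate block, libraries left out, a minimum fold change of 1.5 and library quality weights. Named genes are 14 chosen ones, the 20 called genes with the highest log2 change and the 20 with the lowest (mean at least 50 in PE, libraries not overlapping), the 8 largest rises and 8 largest falls in level, up to 4 called members of each list in each direction, the 5 highest and 5 lowest noncoding RNAs and the called interaction genes. The comparison, its genes and the lists were chosen with earlier results of these data known, and further list members were named after their values were seen. Some items of the lists are not reported here by name.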

Additional observations from a re-analysis of the deposited data

Results flagged for a closer look

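In 12 genes the knockdown difference in PE was larger than that in PBS by the interaction term of the limma fit, and each is given here by that difference on the log2 scale. It was 2.08 for Trib3, 1.94 for Ifit3b, 1.91 for Iigp1, 1.87 for Zdhhc23, 1.86 for Rsad2 and 1.85 for Ifit3. It was 1.55 for Ifi204, 1.37 for Cxcl10, 1.20 for Igfbp5, 1.19 for Irgm2, 1.12 for Gbp2 and 0.84 for Dtx3l. The adjusted p was 6.2e-06 for Trib3, 0.0067 for Ifit3b and 0.0083 for Ifit3, and it ran from 0.011 to 0.033 in the other 9. Of 20 alternatives run, the call held in 20 for Trib3, Ifit3b and Ifit3, in 19 for Zdhhc23, in 18 for Iigp1 and in 9 for Irgm2, the fewest of the 12. In all 12 genes every PE knockdown library lay above every PE control library. That held for 985 of the 997 genes called higher in PE and for 14.4% of all genes tested. The 12 genes were chosen by the same values, so this separation adds no further support.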

How the results depend on the processing

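Of the alternatives run, library quality weights, chosen after seeing the data, gave 5017 calls in PE, 3183 in PBS and 568 for the interaction, and leaving out 3 libraries far from their groups gave 4672, 1865 and 143. The interaction calls of these fits went both ways, with 273 higher and 295 lower under quality weights and 74 and 69 without the 3 libraries. A minimum fold change of 1.5 left 1342 and 528 calls in PE and PBS. The PBS libraries alone gave 392 calls, and scaling to the same total without mitochondrial genes gave 19 interaction calls. Leaving out single libraries gave 1671 to 3502 calls in PE, 510 to 1181 in PBS and 3 to 22 for the interaction. Among named genes, Ryr2, Scube3, Slc38a2 and Acta1 lost their PE calls when scaled to the same total, with or without mitochondrial genes. The cause was not tested.

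Cdkn1a turned from -0.07 to 0.02 when scaled to the same total, with or without mitochondrial genes. Adora2a turned to 0.02 with quality weights or without the 3 libraries, and ran from -0.43 to 0.16 as single libraries were left out. Other genes near 0 also changed sign: Adra1b was -0.03 with quality weights and ran from -0.02 to 0.07 as single libraries were left out, Ppp3r1 ran from -0.04 to 0.09, and Pln ran from -0.19 to 0.002 and was 0.002 without the 3 libraries. None of these was called. With a replicate block the counts were 2269 in PE, 822 in PBS and 12 for the interaction. Whether libraries of the same number belong together is not stated in the labels. Same-numbered PE libraries correlated at 0.03, 0.20 and -0.12 in their deviations from group means. Same-numbered libraries of other groups ran from -0.44 (PBS control and PE knockdown replicate 1) to 0.41 (PBS knockdown and PE control replicate 3). Deviations of 3 libraries per group add up to 0, so these correlations cannot decide the pairing. The count-based tests and limma-voom were not run, because in PE knockdown replicates 2 and 3 the smallest value is too near 1 to accept the multiples as recovered reads.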
